A study of Mus musculus with 24 samples.

Results

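MTOR inhibition without TFEB and TFE3 was read from 8 of the 24 mRNA-seq libraries of the data set, 4 of *tfeb tfe3* DKO MEFs treated with torin1 and 4 of the same cells given DMSO, and it is described here across all genes. MEFs are fibroblasts grown from mouse embryos. Torin1 is an ATP-competitive inhibitor of the MTOR kinase that acts on both of its complexes, MTORC1 and MTORC2. The genotype of both groups is labelled Tfeb/Tfe3 KO, and both groups therefore lack TFEB and TFE3 by label, controls included. The 4 cultures of each group were at passages 8, 9, 10 and 11, and whether they derive from 1 knockout clone is not stated. The labels give neither a dose nor a length of treatment. WT MEFs at passages 7, 8, 9 and 11 were given the same agents, and their 4 torin1 and 4 DMSO libraries are used here for comparison only. The DKO and WT responses to torin1 share no library.

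MTORC1 sits on the lysosome, where the RRAG GTPases and the LAMTOR (Ragulator) complex hold it when amino acids are plentiful, and it drives the synthesis of protein, lipid and nucleotides. Part of its action on mRNA runs through transcription factors. It keeps TFEB and TFE3, which read the CLEAR motif of lysosomal and autophagy genes, out of the nucleus. It also raises the output of ATF4, which drives amino acid uptake and synthesis, and of the SREBPs, which drive sterol and fatty acid synthesis. MTORC2 activates AKT, which keeps the FOXO factors out of the nucleus. MITF, a relative of TFEB and TFE3, is not deleted by label.

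Stretches of promoters that carry the motifs of these branches show what the factors are known to read, and the genes named beside them return below with their values. The sequences were taken from RefSeq promoters on GRCm38.p6 (250 bases before to 50 after each gene's start), and the motif is in capitals. Of the 15401 genes tested, 10562 had such a promoter. The first set shows TGATGNAA, the composite site of CEBP and ATF4 dimers, searched on both strands as every motif here. It stood in 2.12% of all these promoters and in 8 of 29 of those of ATF4 and its targets. *Slc7a11* held it 2 times, on opposite strands, in the window chr3:50443642-50443709 (minus strand), *Chac1* in chr2:119351024-119351081 (plus) and *Pycr1* in chr11:120643819-120643876 (minus).
Slc7a11: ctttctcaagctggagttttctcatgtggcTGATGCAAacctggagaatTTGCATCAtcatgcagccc
Chac1: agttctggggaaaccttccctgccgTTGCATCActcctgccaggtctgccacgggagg
Pycr1: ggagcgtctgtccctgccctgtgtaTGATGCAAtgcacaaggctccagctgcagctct

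The forkhead motif GTAAACA, read by FOXO factors, stood in 2.33% of all promoters, in 3.48% of those of the genes upregulated with torin1 in DKO and in 1.61% of those of the downregulated genes. *Klf9* held it in chr19:23141101-23141157 and *Bcl2l11* in chr2:128125789-128125839, both on the plus strand.
Klf9: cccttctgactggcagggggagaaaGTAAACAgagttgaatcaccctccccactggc
Bcl2l11: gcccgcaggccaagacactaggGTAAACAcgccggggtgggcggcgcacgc

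The E-box CACGTG is the core of the CLEAR motif that TFEB and TFE3 read, and other E-box factors read it too. It stood in 10.2% of all promoters, in 12 of 38 of those of lysosomal hydrolases and cofactors, in 7 of 24 of lysosomal membrane proteins and in 4 of 13 of the V-ATPase. Over the other lists described below, its share ranged from 0%, as for NRF2 targets, to 33.3% for circadian clock genes. *Lamp1* held 4 of them in chr8:13159086-13159151 (plus strand), *Atp6v0b* held 2 in chr4:117887335-117887390 (minus) and *Rragc* 1 in chr4:123917296-123917351 (plus). These matches describe the letters of the windows and are not measured sites of binding.
Lamp1: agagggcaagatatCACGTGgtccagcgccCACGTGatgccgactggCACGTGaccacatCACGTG
Atp6v0b: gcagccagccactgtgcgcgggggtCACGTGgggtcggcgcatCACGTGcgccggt
Rragc: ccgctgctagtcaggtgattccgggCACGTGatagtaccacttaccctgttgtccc

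The 8 libraries held between 24668921 and 30179425 estimated counts. Values are given as CPM (counts scaled to library size after TMM normalization), and a gene is called up- or downregulated where edgeR's quasi-likelihood test over all genes gives an adjusted p under 0.05 with at least a 1.2-fold change. Treatment separated the 8 libraries on the first principal component (56.8% of variance). The second (10.1%) set passage 11 and passage 8 apart at opposite ends in both groups, with passages 9 and 10 mixed between them. Counts of same-group libraries differed beyond sampling noise in every pair, with a ratio of chi-square to its degrees of freedom between 3.12 and 9.15. Of 16 fibroblast markers, 13 stood at 1 CPM or more in both groups, with a summed level of 7735 to 8717 CPM with DMSO and 9563 to 10710 with torin1, while *Thy1* was at 0 throughout. No epithelial, endothelial or pluripotency marker reached 1 CPM. *Cd68*, *Pparg* and *Acta1* were the members of the macrophage, adipocyte and muscle lists that did. A bulk library cannot tell fewer cells of a type from less RNA per cell.

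Of the 15401 genes tested, 3542 (23%) were upregulated and 3111 (20.2%) downregulated with torin1 in DKO. The upregulated genes had a median fold change of 1.54, and 849 of them reached 2-fold and 113 reached 4-fold. The downregulated genes had a median fold of 1.4, with 282 at 2-fold or more and 50 at 4-fold or more. In all 4 passages the torin1 library lay on the called side of the DMSO library of that passage for 97.2% of the upregulated and 98.3% of the downregulated genes. All 4 torin1 libraries lay above all 4 DMSO libraries for 26.7% of the genes tested and below them for 26.1%. In WT, 26.6% of the genes were upregulated and 20.5% downregulated. The genes upregulated in both genotypes were 73.4% of those in DKO and 63.4% of those in WT, and the genes downregulated in both were 74.9% of those in DKO and 73.9% of those in WT. Across genes the responses had a Pearson's r of 0.71 and a Spearman's rho of 0.75, a description over genes, which are not replicates. The difference between the responses, the log2 fold change in DKO minus that in WT, was called higher in 4.68% of genes and lower in 6.33%.

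The 10 genes with the highest rise in DKO, among those with a mean log2 CPM of at least 2 and no overlap between groups, came from unlike families. *Itga2*, a collagen receptor subunit, stood at 15.3, 23, 13.7 and 15.6 CPM with DMSO and at 82.8, 101, 116 and 150 with torin1. No DMSO library came near the torin1 libraries, and the log2 fold change was 2.74 (standard error 0.20, edgeR adjusted p = 6.45e-11). *Klhl24*, a KLHL-family protein and known FOXO target, rose from between 14.7 and 21.5 CPM to between 99.8 and 117 (log2 fold change 2.69). The others were *Mettl27* (2.54), *Fbxo32* (2.41), *Pdgfra* (2.30), the noncoding *Cep83os* (2.29), *Exosc6* (2.27), *Tcp11l2* (2.18), the small nucleolar RNA host *Zfas1* (2.17) and *Rgs16* (2.13), an inhibitor of G protein signalling. *Exosc6* is uncertain, since it ends at the same base as *Aars* and lies within its span on the same strand of chromosome 8. The response in DKO was called higher than that in WT for *Tcp11l2* (difference 0.99) and *Exosc6* (1.91) and for no other gene of these 10.

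The 10 genes with the largest fall, by the same limits, were *Slc7a11* (log2 fold change -4.64), *Trib3* (-4.12), *Ddit4* (-3.48), *Cdsn* (-3.07), *Stc2* (-2.97), *Cth* (-2.81), *Slc6a9* (-2.80), *Tfrc* (-2.78), *Psph* (-2.50) and *Mthfd2* (-2.47). Of these, 8 belong to the list of ATF4 targets described next. *Tfrc*, the transferrin receptor that brings iron into the cell, fell from 151, 124, 175 and 141 CPM to 26.4, 17.9, 19.1 and 22.5, and *Cdsn*, which encodes corneodesmosin, from between 7.26 and 21.7 to between 1.29 and 2.20. By level, the 5 called genes with the highest TPM (a length-scaled level) in DKO with DMSO were *Actb*, *Lgals1*, *Ftl1*, *Vim* and *Tpm1*. *Vim*, the fibroblast intermediate filament, rose (log2 fold change 0.50), while the cytoskeletal *Actb* (-0.63) and *Tpm1* (-0.43), the galectin *Lgals1* (-0.27, and -0.26 to -0.23 and not called without any 1 of 4 libraries) and the ferritin light chain *Ftl1* (-0.41) fell.

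**Figure D1:**
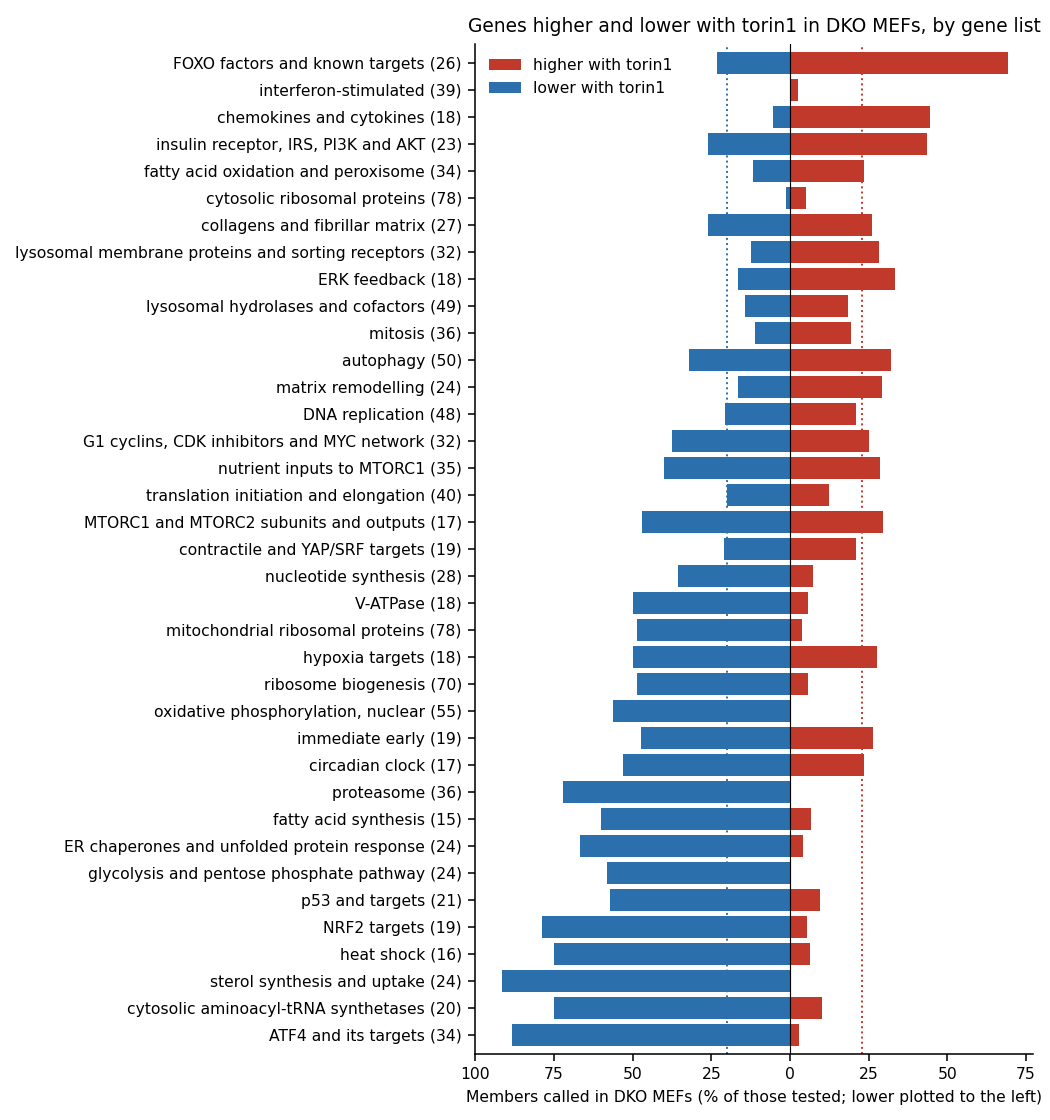
Share of the tested members of each gene list with at least 10 of them (number in parentheses) that were upregulated or downregulated with torin1 in DKO, in percent. Dotted lines mark the shares over all genes tested, 23% and 20.2%, and sterol synthesis (22 of 24 members) and ATF4 with its targets (30 of 34) reach furthest on the downregulated side.

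ATF4 and its targets formed the list with the lowest median among those examined. Of its 34 tested members, 30 were downregulated and 1 upregulated, with a median log2 fold change of -1.80, against 0.02 over all genes. ATF4 is the transcription factor of the integrated stress response, and MTORC1 raises its translation. *Atf4* mRNA itself stood at 426, 467, 437 and 393 CPM with DMSO and at 150, 146, 156 and 162 with torin1, a log2 fold change of -1.49 (standard error 0.10, edgeR adjusted p = 1.71e-11). The groups were far apart, with the lowest DMSO library at more than 2 times the highest torin1 library. *Slc7a11*, the cystine importer whose promoter window is printed above, fell from 19.4, 30.5, 18.4 and 16.6 CPM to 0.523, 0.919, 0.826 and 1.11 (standard error 0.46, edgeR adjusted p = 1.25e-08).

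Members with different roles in amino acid supply moved together. Among the enzymes of serine and one-carbon metabolism, *Psat1* fell from between 844 and 1000 CPM to between 222 and 260 (log2 fold change -1.92), *Mthfd2* from between 203 and 234 to between 37.6 and 42.0, and *Psph*, *Phgdh* (-1.02), *Shmt2* (-1.31) and *Mthfd1l* (-0.80) were downregulated as well. Asparagine synthetase *Asns* fell from between 339 and 421 CPM to between 113 and 131 (-1.57), and the proline synthesis enzymes *Pycr1* and *Aldh18a1* fell by 1.51 and 1.89 on the log2 scale. Of the transporters, *Slc7a5*, the leucine carrier, fell from 643, 925, 713 and 690 CPM to 192, 196, 202 and 211 (-1.89), with its partner *Slc3a2* at -1.25. *Chac1*, which breaks down glutathione, fell from between 65.5 and 80.3 CPM to between 12.3 and 18.2 (-2.35). *Trib3*, a pseudokinase that binds AKT, fell from 78.7, 99.4, 78.2 and 67.0 CPM to 3.73, 4.74, 4.17 and 5.93. *Fgf21*, a secreted stress hormone, had between 4 and 14 counts in each DMSO library and 0 in every torin1 library, which makes it at least 11-fold lower (floor of 3 counts over the group). With *Fgf21* at that bound the median of the list stayed at -1.80.

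*Vegfa* was the upregulated member of the list (log2 fold change 0.34, edgeR adjusted p = 0.00853), with 70.6 to 94.2 CPM with DMSO and an overlapping 88.1 to 126 with torin1, and without torin1 replicate 4 it was not called (0.23). *Nupr1* (0.04), *Cebpb* (-0.01) and *Slc7a3* (-0.21) were not called. The DMSO library of passage 8 stood above the other DMSO libraries in the list (mean log2 level of 0.26 against -0.12 to -0.06), and *Cth* and *Slc6a9* were highest there (47.9 and 137 CPM, against 14.9 to 20.3 and 58.4 to 72.4). With the passage 8 libraries of both groups left out, an alternative added after the data were seen, 30 members were again downregulated. The response differed from that in WT for 6 of the 34 members, higher for *Vegfa* (difference 0.87), *Chac1* (0.70) and *Slc7a3* and lower for *Ddit3* (-1.25), *Sesn2* (-0.67) and *Ddit4* (-0.58). The calls of *Chac1* and *Ddit4* ended without single libraries (8 and 12 of the 16 left out in turn), with differences then of 0.57 to 0.71 and -0.61 to -0.44, and that of *Slc7a3*, under 1 CPM throughout DKO, without 2 of them (1.61 and 1.66). *Ddit3*, the stress factor CHOP, was downregulated in DKO (-0.88) and not called in WT (0.36).

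**Figure D2:**
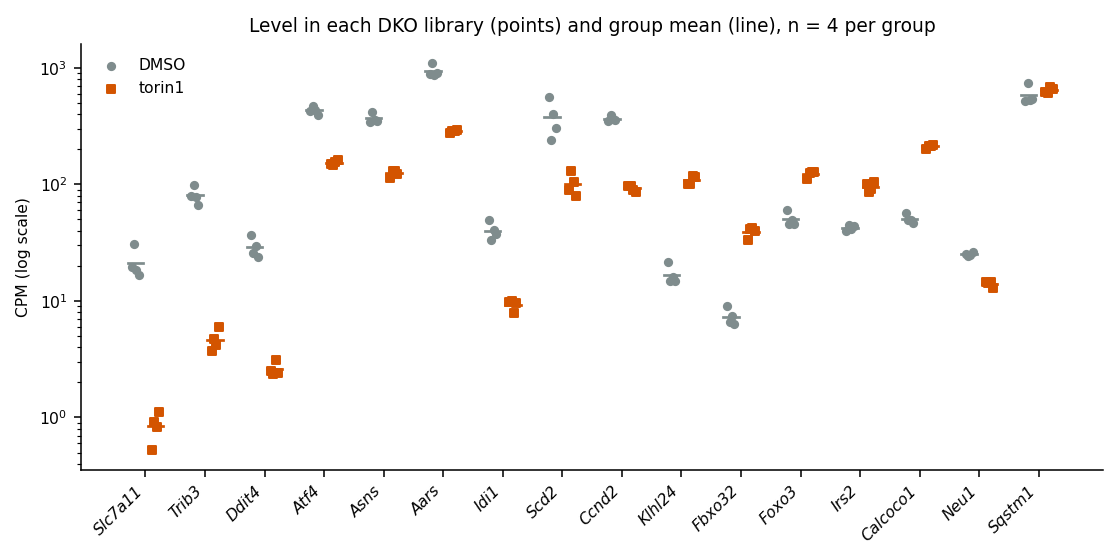
CPM (log axis) of 16 genes in the 4 DMSO and 4 torin1 libraries of DKO, each point 1 library and each bar the group mean. Slc7a11, Trib3 and Ddit4 fall furthest, Klhl24, Fbxo32 and Calcoco1 rise with no overlap between groups, and Sqstm1 overlaps.

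Cytosolic aminoacyl-tRNA synthetases, which load amino acids onto tRNAs and include known ATF4 targets, were downregulated in 15 of 20 cases (median -0.85), and the same number was downregulated in WT. *Aars*, the alanine enzyme, fell from 889, 1093, 869 and 901 CPM to 274, 289, 286 and 294 (log2 fold change -1.72), followed by *Yars* (-1.64) and *Cars* (-1.59). The glutamine enzyme *Qars* (0.33) and the aspartate enzyme *Dars* (0.37) were upregulated, each with no overlap between groups. TGATGNAA stood in 5 of the 13 synthetase promoters available. For none of the 20 was the response called different from that in WT.

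Sterol synthesis and uptake was the next branch. Of 24 members, 22 were downregulated and 0 upregulated in the fit of all libraries (median -0.79), and *Fdft1* and *Tm7sf2* were not called. *Fdft1* (0.37) was called upregulated in the fit of only the libraries compared (0.36) and without DMSO replicate 1 (0.50). *Idi1*, an isomerase of the isoprenoid steps, fell from 49.2, 33.2, 40.2 and 37.8 CPM to 9.71, 9.92, 7.80 and 9.68, with every torin1 library below every DMSO library (log2 fold change -2.11, standard error 0.23, edgeR adjusted p = 4.70e-08). *Srebf2*, which encodes the factor of this pathway, fell from at most 296 CPM to between 161 and 176, with no overlap between groups (-0.57). The CCAAT box, which NFY reads beside SREBP2 sites, stood in 15 of 17 of their promoters and in 39.5% of all promoters. Over the other lists its share ranged from 8.33% for chemokines and cytokines to 84.2% for ER chaperones and the unfolded protein response. No member of the sterol list had a response called different from WT.

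Fatty acid synthesis showed 9 downregulated members of 15, led by *Elovl6* (log2 fold change -1.91), which lengthens fatty acids, *Scd2* (-1.90), which desaturates them, and *Mid1ip1* (-1.17). *Scd2* varied among DMSO libraries, at 557, 240, 401 and 307 CPM, and all of these were above the torin1 libraries at 89.0, 131, 105 and 78.7. *Srebf1* was upregulated in DKO (0.39) with no overlap between groups, from between 97.7 and 114 CPM to between 136 and 141. It was not called in WT, and the response differed (difference 0.39, edgeR adjusted p = 0.00213). *Scd1* (0.10), *Fads1* and *Lpin1* (-0.05) were not called, with overlapping groups.

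Protein synthesis genes split by role. Of 70 ribosome biogenesis genes, 34 were downregulated and 4 upregulated (median -0.26). *Bysl*, an assembly factor of the small subunit, fell from between 93.6 and 108 CPM to between 55.4 and 60.3 (log2 fold change -0.84), and *Nolc1* (-0.77) and *Rrs1* (-0.76) fell too. The upregulated ones were *Polr1c* (0.49), *Taf1b* (0.47), *Wdr36* (0.44) and *Taf1d* (0.35). Cytosolic ribosomal proteins, whose mRNAs MTORC1 controls mainly at translation, were hardly called at the fold limit, with 4 of 78 upregulated and 1 downregulated (median 0.09). *Rpl10a* was the member with the largest change (0.63), from 596, 660, 656 and 653 CPM to 1000, 1001, 987 and 989, followed by *Rpl12* (0.45), *Rpl3* (0.38) and *Rps20* (0.32), and *Rpl27* fell by 0.29 on the log2 scale. At the adjusted p alone, 35 of them were upregulated and 2 downregulated. Many ribosomal protein genes have processed pseudogenes that can share their reads. Of 40 translation factors, 8 were downregulated (20%) and 5 upregulated (12.5%), beside 20.2% and 23% of all genes. The lowest were *Eif2s2* (-0.76), *Eif5a* (-0.60) and *Eif1a* (-0.53). Those upregulated were *Eif3a* (0.50), *Eif1* (0.41), *Eif3g* (0.40), *Eef2* (0.38) and *Pabpc1* (0.30, and 0.26 and not called without DMSO replicate 1).

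Genes of carbon and nucleotide metabolism leaned down. Of 24 glycolysis and pentose phosphate genes, 14 were downregulated and 0 upregulated (median -0.41; at the adjusted p alone, 3 were upregulated). Hexokinase *Hk2* fell from between 50.3 and 63.6 CPM to between 26.8 and 30.5 (log2 fold change -1.04), *Pgam1* from between 454 and 515 to between 239 and 245 (-0.99), and *Ldha*, which makes lactate, from between 844 and 999 CPM to between 472 and 523 (-0.91). Hypoxia targets were mixed, 9 downregulated (50%) and 5 upregulated (27.8%) of 18, beside 20.2% and 23% of all genes. The collagen prolyl hydroxylases *P4ha2* (-1.10) and *P4ha1* (-1.04) were down beside *Ddit4*, and *Ndrg1* (0.84), *Kdm3a* (0.67) and *Pdk1* (0.57) up. Of 28 nucleotide synthesis genes, 10 were downregulated, including *Nme1* (-0.77), *Dhodh* (-0.60) and *Tyms* (-0.58), and the purine enzymes *Adss* (0.62) and *Paics* (0.57) were upregulated.

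Mitochondrial lists fell broadly but by little. Of 55 nuclear genes of oxidative phosphorylation, 31 were downregulated and 0 upregulated (median -0.29; 1 was upregulated at the adjusted p alone). Cytochrome c, *Cycs*, led them, from between 121 and 136 CPM to between 56.4 and 62.1 (log2 fold change -1.12), and *Uqcrq* (-0.99) and *Atp5g1* (-0.72) followed. Of 78 mitochondrial ribosomal proteins, 38 were downregulated, with *Mrpl20* lowest at -0.97, and 3 upregulated, which were *Mrps30* (0.47), *Mrps2* (0.32) and *Mrpl9* (0.29, and 0.26 and not called without either of 2 libraries). Of 34 fatty acid oxidation and peroxisome genes, 8 were upregulated and 4 downregulated, shares of 23.5% and 11.8% beside 23% and 20.2% of all genes. *Pdk4*, the kinase that switches off pyruvate dehydrogenase, rose from between 2.30 and 4.28 CPM to between 7.73 and 11.8 (1.58), *Angptl4* by 1.13 and *Cpt1a*, the gate of fatty acid import into mitochondria, by 1.12 on the log2 scale. The downregulated members included *Ppargc1b* (-1.86), which was at most 0.206 CPM in any library and lost its call without any 1 of 4 libraries (-1.70 to -1.48), *Etfb* (-0.46) and *Pex11a* (-0.43).

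**Figure D3:**
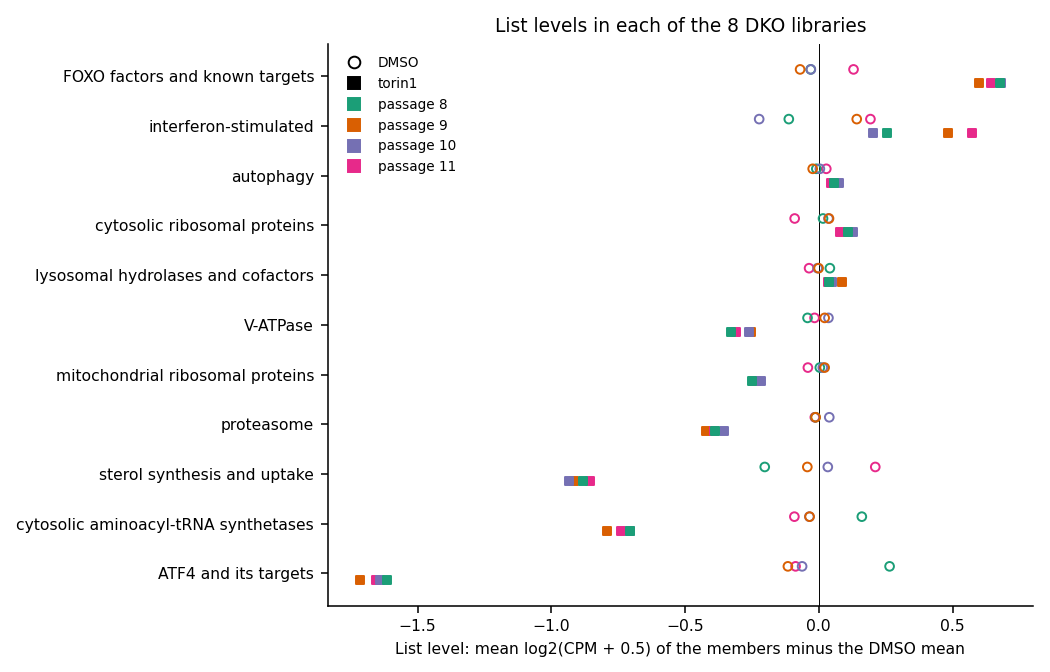
Mean log2 CPM of each list in the 8 DKO libraries relative to the mean of the DMSO libraries, with circles for DMSO, squares for torin1 and colours for passage. The ATF4 list stands at -1.72 to -1.61 in the 4 torin1 libraries, the FOXO list at 0.60 to 0.68, and the passage 8 DMSO library at 0.26 for ATF4.

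FOXO factors and their known targets were the list with the highest median, 0.65. Of 26 members, 18 were upregulated (69.2%) and 6 downregulated (23.1%), beside 23% and 20.2% of all genes. *Foxo3* stood at 60.8, 45.4, 49.1 and 46.0 CPM with DMSO and at 110, 124, 128 and 126 with torin1 (log2 fold change 1.28, standard error 0.08, edgeR adjusted p = 7.99e-12), and *Foxo1* rose by 0.77. *Fbxo32*, the muscle atrophy ubiquitin ligase atrogin-1, rose from 9.05, 6.53, 7.49 and 6.30 CPM to 33, 41.1, 42.5 and 39.7, and *Ccng2*, an atypical cyclin of quiescent cells, from between 8.71 and 16.9 to between 45.4 and 47.3 (1.96). In none of these did the groups overlap. *Hbp1* (1.83), *Txnip* (1.67), which holds back glucose uptake, *Klf9* (0.86) and the cell death gene *Bcl2l11* (0.93) rose as well, the last 2 with the forkhead motif shown above. The downregulated members were *Bcl6* (-1.05), *Gadd45a* (-0.96), *Tsc22d3* (-0.82), *Sod2* (-0.67), *Tob1* (-0.36) and *Sesn3* (-0.33, and -0.23 and not called without DMSO replicate 1). The forkhead motif stood in 4 of 21 promoters of the list. For 5 members the response was called higher than in WT, *Pdk4* (difference 0.99), *Ccng2* (0.70), *Bcl2l11* (0.63), *Cited2* and *Rictor*, and for none lower. The calls for *Pdk4* and *Rictor* ended without 8 and 4 of the 16 single libraries (differences then of 0.76 to 1.00 and 0.24 to 0.26).

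The insulin and PI3K branch above AKT had 10 upregulated (43.5%) and 6 downregulated (26.1%) members of 23, beside 23% and 20.2% of all genes. Receptors and docking proteins were among the upregulated, *Pdgfra* at 20.4, 33.4, 22.9 and 24 CPM with DMSO and 124, 78.0, 117 and 177 with torin1, *Irs2* from between 40.0 and 44.4 CPM to between 85.2 and 105 (log2 fold change 1.17), *Insr* (0.70), *Irs1* (0.58) and *Igf1r* (0.46). *Pik3ip1* (1.39), an inhibitor of PI3K, and *Grb14* (1.23), which binds the insulin receptor and stood under 0.5 CPM, were also upregulated, the latter not without DMSO replicate 1 (1.00). The downregulated were the PI3K subunits *Pik3r3* (-1.74), *Pik3r1* (-0.94), *Pik3cb* (-0.66) and *Pik3r2* (-0.47), and the kinases *Akt1* (-0.62) and *Akt2* (-0.57). *Igf1r* was the only member with a response called different from WT (difference 0.29), a call that ended without 2 single libraries (0.25 and 0.26).

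Signalling genes downstream of growth factors were mixed. Of 19 immediate early genes (median -0.34), 9 were downregulated (47.4%) and 5 upregulated (26.3%), beside 20.2% and 23% of all genes. *Egr1* fell from 286, 263, 222 and 218 CPM to 85.2, 111, 71.8 and 78.1 (log2 fold change -1.52), further than in WT (-0.66, edgeR adjusted p of the difference = 0.0103), *Egr3* (-2.11) and *Fos* (-1.54) fell, and *Ier5* (1.01), *Klf4* (0.53), *Nr4a2* (0.51), *Klf2* (0.41) and *Klf6* (0.35) rose. *Atf3*, a stress-induced factor, fell less in DKO (-0.68) than in WT (-2.01), and the difference was called (1.34). Of 18 genes of ERK feedback, 6 were upregulated (33.3%) and 3 downregulated (16.7%), beside 23% and 20.2% of all genes. *Spred3* (0.98), *Dusp10* (0.92), *Etv4* (0.55), *Dusp5* (0.43), *Spry2* (0.43) and *Dusp1* (0.39) were upregulated and *Spry4* (-1.06), *Fosl1* (-0.79) and *Phlda1* (-0.34) downregulated. *Spry4* stood under 1 CPM and lost its call without any 1 of 4 libraries (-0.98 to -0.81).

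The MTOR machinery and its nutrient inputs were read in DKO beside WT. Of 17 subunits and outputs of MTORC1 and MTORC2, 5 were upregulated (29.4%) and 8 downregulated (47.1%), beside 23% and 20.2% of all genes. *Mtor* itself stood at 61.4, 62.1, 57.8 and 60.7 CPM with DMSO and at 86.2, 85.9, 82.4 and 87.7 with torin1 (log2 fold change 0.50), against 0.08 in WT (difference 0.42, edgeR adjusted p = 1.37e-06). *Pdcd4*, a brake on translation that S6K marks for destruction, rose from between 18 and 24.6 CPM to between 54.5 and 59.0 (1.45), further than in WT (0.93). The MTORC2 subunit *Rictor* (0.59), *Eif4b* (0.65) and the inhibitor *Deptor* (0.33, and 0.25 to 0.29 and not called without any 1 of 3 libraries) rose, and *Eif4ebp1* (-0.79), *Eif4e* (-0.70) and *Rps6kb2* (-0.61) fell.

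Of 35 nutrient inputs, 14 were downregulated (40%) and 10 upregulated (28.6%), beside 20.2% and 23% of all genes. Of these inputs, 11 had a lower and 3 a higher response than in WT. Among the inhibitors of MTORC1, *Ddit4* (REDD1) fell from 37.0, 25.5, 29.7 and 23.9 CPM to 2.50, 2.35, 3.13 and 2.39, and the leucine sensor *Sesn2* from between 42.1 and 52.7 to between 8.18 and 9.52 (log2 fold change -2.47). The arginine sensors moved apart, with *Castor2* at -1.4 and *Castor1* at 0.97. *Wdr59*, of the GATOR2 complex, rose by 0.73 and *Rragd* by 1.09, the latter at levels under 0.5 CPM, with overlapping groups and with its call lost without any 1 of 6 libraries (0.90 to 1.07).

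Among the lysosomal scaffold genes, *Lamtor3* fell from 38.2, 37.6, 41.9 and 41.7 CPM to 18.7, 17.6, 18.1 and 17.8 in DKO (log2 fold change -1.14), and in WT it stood at -0.17 (difference -0.97, standard error 0.06, edgeR adjusted p = 4.55e-10). *Lamtor1* (-0.42 in DKO, 0.25 in WT) and *Lamtor4* (-0.50 and -0.21) had lower responses too. *Flcn*, the GTPase activator of RRAGC and RRAGD, was downregulated in DKO (-0.60) and upregulated in WT (0.96). *Rragc*, with the E-box window above, stood at 78.6, 82.8, 87.8 and 83.9 CPM with DMSO and at 73.0, 66.1, 74.0 and 73.9 with torin1, apart but under the fold limit (-0.21), and was upregulated in WT (0.54). *Fnip1* (-0.09) and *Rragb* (0.19, and 0.27 and called without DMSO replicate 2) were not called in DKO and were upregulated in WT (1.32 and 1.38). The higher responses included those of *Castor1* and *Nprl3*, of which *Castor1* lost the call without any 1 of 5 libraries (0.33 to 0.38).

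**Figure D4:**
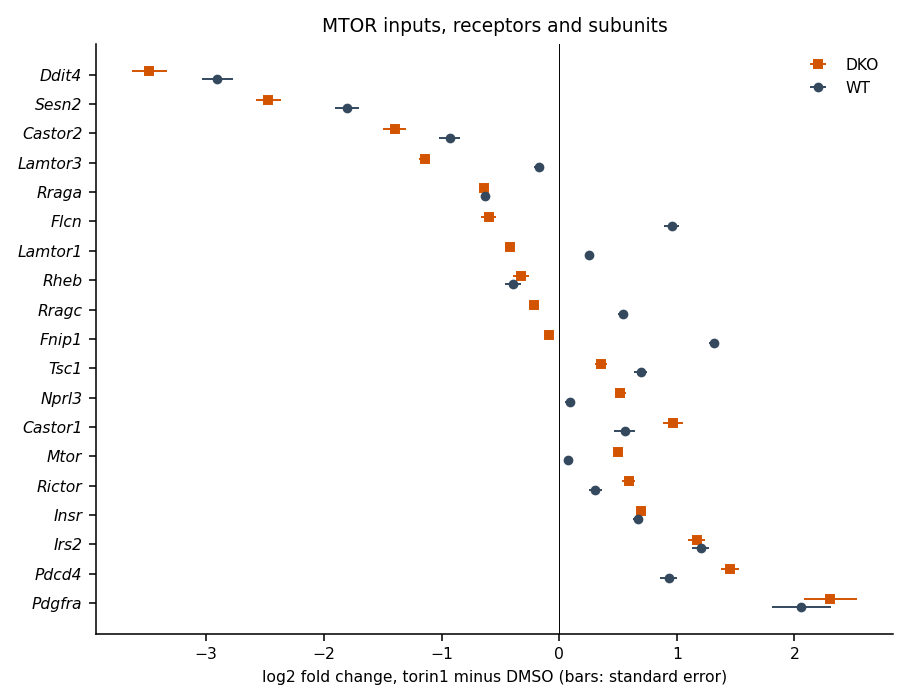
Log2 fold change of torin1 against DMSO in DKO and in WT for 19 genes of the MTOR pathway, with standard errors. Flcn points down in DKO and up in WT, and Ddit4 and Sesn2 fall in both.

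Lysosomal and autophagy genes, the known field of TFEB and TFE3, moved both ways in DKO. Of 49 lysosomal hydrolases and cofactors, 9 were upregulated and 7 downregulated, shares of 18.4% and 14.3% that lie below those over all genes, with a median of 0.01. In WT, 34 were upregulated and 0 downregulated at the fold limit (median 0.47), and in 32 the response was called lower in DKO, against 6.33% of all genes. *Neu1*, the lysosomal sialidase, stood at 25.4, 24.2, 25 and 26.3 CPM with DMSO and at 14.5, 14.3, 14.4 and 13 with torin1, a log2 fold change of -0.84 (standard error 0.07, edgeR adjusted p = 2.35e-10), and it was upregulated in WT (0.55). *Gusb* (-0.68), *Plbd2* (-0.58), *Nagpa* (-0.46), *Smpd1* (-0.39), *Gnptab* (-0.34) and *Ids* (-0.27, and -0.25 to -0.22 and not called without either of 2 libraries) were the other downregulated members in DKO. *Idua*, which degrades dermatan and heparan sulfate, rose in DKO from between 3.74 and 5.85 CPM to between 11.8 and 14 (1.39), by less than in WT (2.44). *Naglu* (0.78) and *Ctsf* (0.68, with overlapping groups, and 0.56 to 0.60 and not called without any 1 of 4 libraries) followed. The cathepsin *Ctsd* (-0.05) and the peptidase *Tpp1* (0.11) were not called in DKO, with 305 to 319 against 280 to 318 CPM for *Ctsd*, and were upregulated in WT (0.52 and 1.46).

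Of 32 lysosomal membrane proteins and sorting receptors, 9 were upregulated (28.1%) and 4 downregulated (12.5%) in DKO, beside 23% and 20.2% of all genes. In WT, 22 were upregulated and 3 downregulated, and in 18 the response was called lower in DKO, against 6.33% of all genes. *Ostm1*, the partner of the chloride transporter CLCN7, fell from between 32.4 and 37.6 CPM to between 16.2 and 18.7 (log2 fold change -1.02), while it stood at 0.29 in WT. The iron transporter *Slc11a2* (-0.99) and the channel *Tpcn1* (-0.58) were also downregulated. *Gpnmb* (0.82, overlapping groups, 0.59 and 0.63 and not called without either of 2 libraries, against 4.8 in WT), *Slc29a3* (0.73) and *Tpcn2* (0.63) were the members with the highest rise. *Mcoln1*, the lysosomal calcium channel, rose from between 26.5 and 32.1 CPM to between 42.0 and 44.5 (0.57), against 1.42 in WT. *Lamp1*, with 4 E-boxes in the window printed above, stood at 532, 591, 567 and 572 CPM with DMSO and at 523, 494, 530 and 547 with torin1 in DKO (-0.11, not called), and at 0.60 in WT.

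Genes of the V-ATPase, the proton pump that acidifies the lysosome, leaned down. Of 18 subunits, 9 were downregulated and 1 upregulated in DKO (median -0.24), and 1 was downregulated and 9 upregulated in WT (median 0.24), with a lower response in 15. *Atp6v0b*, whose window holds 2 E-boxes, fell from 49.3, 52.7, 55.4 and 53.5 CPM to 35.6, 32.6, 35.3 and 34.4 (log2 fold change -0.61) and was upregulated in WT (0.80, edgeR adjusted p of the difference = 1.10e-10). The largest falls were those of *Atp6v0e* (-0.77) and *Atp6v0c* (-0.71), and the next was that of *Atp6v1h* (-0.61). *Tcirg1*, the a3 subunit, was the upregulated member (0.40).

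Of 50 autophagy genes, 16 were upregulated and 16 downregulated in DKO (32% each, beside 23% and 20.2% of all genes), against 24 and 8 in WT. *Calcoco1*, a receptor for selective autophagy of the endoplasmic reticulum, rose from 57.0, 49.6, 49.3 and 46.9 CPM to 202, 212, 213 and 217 (log2 fold change 2.06, standard error 0.05, edgeR adjusted p = 2.92e-18), further than in WT (1.76). *Wipi1*, which binds PI3P on the forming autophagosome, rose from between 32.7 and 35.0 CPM to between 67.9 and 81.5 (1.14), and *Atg14*, of the PI3K complex that starts it, by 1.13. The protease genes *Atg4d* (-0.97) and *Atg4a* (-0.95) and *Atg5* (-0.65) fell. *Sqstm1*, the receptor p62, stood at 522 to 739 CPM with DMSO and 609 to 681 with torin1 (0.14, not called, but 0.27 and called without DMSO replicate 2). *Map1lc3b*, which encodes the autophagosome marker LC3B, was above all DMSO libraries with torin1 but at the fold limit (0.26, and 0.26 to 0.30 and called without any 1 of 3 libraries), and both *Sqstm1* and *Map1lc3b* were upregulated in WT (0.99 and 0.91). For 14 of the 50 the response was lower and for 4 higher than in WT, the latter *Atg13*, *Epg5*, *Wipi1* and *Calcoco1*, of which *Atg13* lost the call without 8 of the 16 single libraries (0.24 to 0.27).

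**Figure D5:**
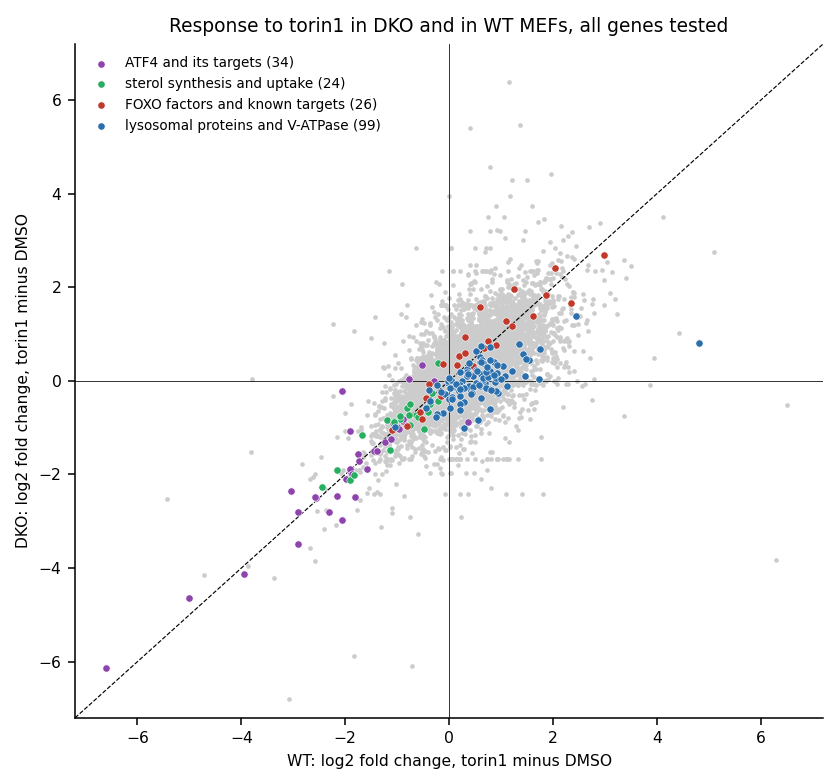
Log2 fold change of torin1 against DMSO in WT (horizontal) and DKO (vertical) for the members of the ATF4, sterol and FOXO lists and of the 3 lysosomal lists, with the number tested. The dashed line marks equal responses, along which the ATF4, sterol and FOXO members scatter, while most lysosomal members lie below it.

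Of the MiT/TFE family itself, *Mitf* mRNA was upregulated in DKO with overlapping groups, at 35.8, 27.3, 31.5 and 27.2 CPM with DMSO and 35.7, 43.1, 40.4 and 39.2 with torin1 (log2 fold change 0.38, edgeR adjusted p = 0.0133), and the response was higher than in WT (difference 0.61). Without the passage 8 libraries both calls were lost (0.33 and 0.56), and that of the difference also without any 1 of 6 libraries (0.53 to 0.60). *Tfec* had 0 counts in all libraries. mRNA of *Tfeb* and *Tfe3* was still counted in DKO and fell with torin1 (-0.56 and -0.42), so that in these libraries the knockout rests on the labelled genotype. For TFEB protein, the paper's immunoblots took *tfeb tfe3* DKO MEFs as a negative control.

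Genes of protein quality control leaned down. Of 36 proteasome genes, 26 were downregulated and 0 upregulated (median -0.39), led by *Psmd7*, which fell from between 284 and 312 CPM to between 173 and 184 (log2 fold change -0.74), *Psmb3* (-0.73) and *Psmd13* (-0.71). *Nfe2l1*, the factor that drives proteasome genes, stood at -0.65. Of 24 ER chaperones and unfolded protein response genes, 16 were downregulated, including the central chaperone *Hspa5* (BiP) from between 835 and 939 CPM to between 389 and 413 (-1.15), *Xbp1* (-1.2), *Sdf2l1* (-1.18) and *Herpud1*, from 99.3, 73.8, 93.3 and 74.0 CPM to 15.2, 18.6, 16.2 and 14.3 (-2.40), further than in WT (-1.58). *Dnajb9* was upregulated (0.52). Of 16 heat shock genes, 12 were downregulated, *Hspa1b* (-1.84) and *Hspa1a* (-1.79) furthest, whose near-identical sequences make their separate values uncertain, then *Dnaja1* (-0.82), and *Hspa8* was upregulated (0.39). Of 19 NRF2 targets, 15 were downregulated, with *Hmox1*, which breaks down heme, at -0.97, *Gsta4* at -0.99 with overlapping groups, and *Nfe2l2*, which encodes NRF2, at -0.60, while the exporter *Abcc1* was upregulated (0.80).

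Cell cycle genes moved both ways. Of 32 G1 cyclins, CDK inhibitors and MYC network genes, 12 were downregulated (37.5%) and 8 upregulated (25%), beside 20.2% and 23% of all genes. *Ccnd2* fell from 348, 390, 362 and 355 CPM to 96.9, 96.2, 90.0 and 86.6 (log2 fold change -1.98), and *Ccnd1* from between 233 and 336 to between 118 and 162 (-1.08). The retinoblastoma gene *Rb1* (0.86), *Mycl* (1.01) and *Cdkn1b*, which encodes the inhibitor p27 (0.35), rose, while *Cdkn1a*, which encodes p21, fell (-1.16) and *Myc* was not called (0.28, and 0.37 and called without DMSO replicate 2). Of 21 p53 targets, 12 were downregulated, *Sesn2*, *Cdkn1a* and *Aen* (-1.10) furthest, and *Pmaip1* (1.41) and *Perp* (0.26, and 0.17 to 0.25 and not called without any 1 of 4 libraries) were upregulated. Of 48 DNA replication genes, 10 rose and 10 fell, shares of 20.8% each that lie near those over all genes, with *Pole* (0.88), *Cdt1* (0.62) and *Pold1* (0.55) at one end and *Cdc7* (-0.81), *Fen1* (-0.78) and *Cdc6* (-0.60) at the other. Of 36 mitosis genes, 7 were upregulated (19.4%) and 4 downregulated (11.1%), both below the shares over all genes. Those upregulated included *Ndc80* from between 44.6 and 56.4 CPM to between 106 and 108 (1.09), *Cenpe* (0.97) and *Cenpf* (0.68), and *Mybl2* (-0.67), *Cdca8* (-0.33), *Foxm1* (-0.33) and *Aurkb* (-0.27, and -0.26 to -0.22 and not called without any 1 of 4 libraries) were downregulated.

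The number of interferon-stimulated genes called differed between fits. Of 39, *Ifit2* was upregulated in the fit of all libraries (log2 fold change 0.54, edgeR adjusted p = 0.0143) and 0 were downregulated (median 0.43). In 15 of the 39 the 4 torin1 libraries lay above the 4 DMSO libraries, and in 2 below them. Of all genes tested, 26.7% lay above and 26.1% below in this way. *Tap1*, the peptide transporter of antigen presentation, stood at 61.6, 42.3, 41.3 and 53.6 CPM with DMSO and at 137, 144, 104 and 107 with torin1 (1.30, standard error 0.63, edgeR adjusted p = 0.0826). The mean log2 level of the list ranged from -0.22 to 0.19 over the DKO libraries with DMSO and from 0.20 to 0.57 with torin1, and in WT from -1.09 to 2.24 with DMSO and from -0.47 to 2.65 with torin1. In a fit of the 8 DKO libraries alone, 20 were upregulated and 2 downregulated, and in fits of the same 8 libraries the counts were 22 and 1 with a replicate block and 23 and 1 with a passage block. The cause of this difference was not tested.

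Of 18 chemokines and cytokines, 8 were upregulated (44.4%) and 1 downregulated (5.56%), beside 23% and 20.2% of all genes. *Cxcl16* (log2 fold change 1.22), *Tslp* (0.99) and *Ccl9* (0.94, and 0.76 to 0.84 and not called without any 1 of 4 libraries) rose furthest. *Ccl20* was downregulated (-2.55), from between 2.01 and 3.50 CPM to between 0.359 and 0.515. *Tslp*, a cytokine of barrier tissue, rose from 11.4, 14.9, 13.1 and 13.7 CPM to 22.1, 25.3, 27.3 and 30.9, and its response differed from that in WT, where it stood at 0.04 (edgeR adjusted p of the difference = 0.00378).

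Matrix genes moved both ways. Of 27 collagens and fibrillar matrix genes, 7 rose and 7 fell in DKO, shares of 25.9% each that lie near those over all genes, against 3 and 9 in WT. Fibrillar collagen *Col1a1* fell from 2264, 1875, 1971 and 1606 CPM to 803, 1082, 902 and 824 (log2 fold change -1.10), and *Col1a2* (-1.16) and the basement membrane *Col4a1* (-0.77) fell too. Fibronectin, *Fn1*, rose from 1211, 1766, 1361 and 1416 CPM to 2941, 2724, 3396 and 3787 (1.16), and *Col8a1* (1.33) and *Tnc* (1.08) rose as well. In WT *Col8a1* and *Tnc* were not called (-0.07 and 0.12), and the responses of *Fn1*, *Col8a1* and *Tnc* were called higher in DKO, that of *Fn1* not without any 1 of 6 libraries (0.46 to 0.53). Of 24 genes of matrix remodelling, 7 were upregulated (29.2%) and 4 downregulated (16.7%), beside 23% and 20.2% of all genes. *Mmp13* rose furthest, from between 34.7 and 62.5 CPM to between 134 and 246 (1.92), and *Mmp10* (1.49) and *Mmp9* (1.12) followed. *Mmp19* (-0.83), *Loxl1* (-0.65) and *Plaur* (-0.43) were among those downregulated. Of 19 contractile and YAP or SRF targets, 4 rose and 4 fell, also near the shares over all genes (21.1% each). *Ccn2* (0.63), *Flna* (0.56), *Ankrd1* (0.44) and *Axl* (0.27, and 0.25 to 0.26 and not called without any 1 of 3 libraries) were upregulated and *Myl9* (-0.77), *Actb*, *Ccn1* (-0.59) and *Tpm1* downregulated.

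Of 17 circadian clock genes, 9 were downregulated (52.9%) and 4 upregulated (23.5%), beside 20.2% and 23% of all genes. *Ciart*, a repressor of CLOCK and BMAL1, fell from 9.12, 14.3, 10.7 and 8.98 CPM to 0.597, 0.698, 0.826 and 0.822 (log2 fold change -3.86), further than in WT (-2.58, edgeR adjusted p of the difference = 0.0416), a call that ended without 12 of the 16 single libraries (-1.33 to -1.07). The repressors *Per2* (-1.92) and *Cry1* (-1.70) and the activator *Arntl* (-1.53) fell, and *Hlf* (1.43), *Rora* (1.39), *Nr1d2* (0.64) and *Per3* (0.35) rose. E-boxes, which CLOCK and BMAL1 read, stood in 5 of 15 of their promoters. The cultures' time of harvest is not in the labels.

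Where DKO differed most from WT, among genes with a mean log2 CPM of at least 2 and groups that did not overlap in DKO or in WT, the lower responses were those of *Gpnmb* (difference -3.98), *Uap1l1* (-1.85), *Dpp7* (-1.76), *Slc24a3* (-1.72, and -1.59 to -1.41 and not called without any 1 of 4 libraries) and *Trnp1* (-1.71). *Uap1l1* stood at 108, 110, 118 and 117 CPM with DMSO and 108, 91.3, 99.2 and 98.3 with torin1 in DKO (-0.19, not called) and rose by 1.66 in WT. *Dpp7*, a lysosomal dipeptidase outside the lists, rose by 0.38 in DKO and 2.13 in WT. The higher responses were those of *Apbb1ip* (2.36), *Exosc6*, *Slco2a1* (1.74), *F2rl1* (1.63) and *Pdpn* (1.46). *F2rl1*, a protease-activated receptor, rose from between 2.88 and 4.11 CPM to between 4.70 and 8.76 in DKO (0.94) and fell in WT (-0.69), and *Slco2a1*, a prostaglandin carrier, rose from between 1.00 and 1.46 to between 1.87 and 2.46 (0.86) and fell in WT (-0.89). *Apbb1ip* and *Pdpn* stayed under 1 CPM in all DKO libraries and passed the limit on level through the WT libraries.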

How the data were processed

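mRNA-seq libraries of WT and *tfeb tfe3* DKO MEFs were prepared from 6 groups of 4 libraries (DMSO, torin1 and MK8722 in each genotype). The authors aligned 52-base paired-end reads to GRCm38 with STAR, taking molecular identifiers into account, and quantified genes with salmon; the labels' processing notes name the same aligner, quantifier and build. The files deposited by the authors hold salmon's estimated counts per gene, which were rounded here, and TPM (a length-scaled level), used here only to rank genes by level. The strand setting was not given in the sources used here. The DKO totals above set the precision of low genes.

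Genes with enough counts by edgeR's filterByExpr (minimum count of 10) were tested with edgeR 4.0.16 (R 4.3.3), TMM factors of 0.95 to 1.08 and 1 quasi-likelihood fit of all 24 libraries by group, with contrasts for torin1 against DMSO in DKO, in WT and for the difference of both. The biological coefficient of variation was 10.7%. P-values were adjusted by Benjamini-Hochberg over all genes. The paper's methods mention removal of a batch effect with limma and do not say which batch. All libraries carry 1 batch label, so no batch term was used here. The labels separate replicates by passage, not by embryo, so p-values measure a spread between passages. That spread was pooled over the 6 groups of both lines, MK8722 libraries included, and is not that of the DKO line alone. Alternatives were limma-voom (3.58.1), DESeq2 (1.42.0), other scalings, filters and thresholds, blocks by replicate number or passage, and single libraries left out; the edgeR 4 form and the passage 8 exclusion were added after the data were seen. In simulated counts of 15401 genes, 200 were changed by 1 or 2 on the log2 scale. The DKO contrast recovered 181 of these and called 4 unchanged ones. The simulated spread followed the trend with level alone, without a spread of each gene's own, and smaller changes were not simulated. In the data, 43.2% of genes were called, and 24% of the upregulated and 9.06% of the downregulated ones reached 2-fold. These rates of the simulation therefore do not carry over to most calls.

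Gene lists and comparisons were chosen with earlier results of these data known. Named genes are the 10 highest and 10 lowest called genes with a mean log2 CPM of at least 2 and no overlap between groups, up to 3 called members of each list in each direction, members of counts of 5 or fewer, the MiT/TFE family, the 5 largest response differences in each direction, and the 5 called genes of highest TPM, with unnamed gene models skipped. Some of these genes are not reported here. Other list members were named for their known role, after their values were seen. A list level is the mean over members of log2(CPM + 0.5), relative to the mean of the DMSO libraries.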

Additional observations from a re-analysis of the deposited data

Results flagged for a closer look

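The response to torin1 differed between DKO and WT, by the test of the difference itself, for 721 genes with a higher and 975 with a lower log2 fold change in DKO. Those among the genes named here follow, each with that difference (DKO minus WT, log2).

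Lower responses were common among lysosomal genes. Of the list of lysosomal hydrolases and cofactors they were *Neu1* (-1.4), *Tpp1* (-1.36), *Ctsf* (-1.08), *Idua* (-1.06), *Nagpa* (-0.73), *Plbd2* (-0.59), *Ctsd* (-0.57), *Naglu* (-0.56), *Gusb* (-0.56), *Smpd1* (-0.39) and *Gnptab* (-0.39). Of membrane proteins they were *Gpnmb* (-3.98), *Ostm1* (-1.30), *Cd68* (-1.01), *Mcoln1* (-0.85) and *Lamp1* (-0.71), and the lysosomal dipeptidase *Dpp7* stood at -1.76. The V-ATPase gave *Atp6v0b* (-1.41), *Atp6v1h* (-0.82), *Atp6v0e* (-0.52) and *Atp6v0c* (-0.48), and autophagy gave *Sqstm1* (-0.85), *Map1lc3b* (-0.65) and *Atg4d* (-0.36). Of the nutrient inputs and scaffolds they were *Flcn* (-1.55), *Fnip1* (-1.41), *Rragb* (-1.2), *Lamtor3* (-0.97), *Rragc* (-0.76), *Lamtor1* (-0.68), *Sesn2* (-0.67), *Ddit4* (-0.58), *Castor2* (-0.47) and *Lamtor4* (-0.29).

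Outside the lysosome the response was lower for the stress genes *Ddit3* (-1.25), *Fos* (-1.0), *Egr1* (-0.86) and *Herpud1* (-0.82), the clock genes *Ciart* (-1.27) and *Rora* (-1.03), the lipid gene *Cpt1a* (-0.61), and for *Uap1l1* (-1.85), *Slc24a3* (-1.72), *Trnp1* (-1.71), *Mmp19* (-0.66), *Cdc7* (-0.32) and *Ftl1* (-0.27).

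Higher responses included the matrix and adhesion genes *Col8a1* (1.4), *Tnc* (0.96), *Ccn2* (0.85), *Mmp10* (0.82), *Fn1* (0.55) and *Flna* (0.37), and the signalling genes *Atf3* (1.34), *Tslp* (0.95), *Klf4* (0.90), *Dusp5* (0.85), *Dusp10* (0.83), *Ier5* (0.74), *Etv4* (0.54) and *Igf1r* (0.29). The MTOR pathway gave *Pdcd4* (0.52), *Nprl3* (0.43), *Mtor* (0.42), *Castor1* (0.41) and *Rictor* (0.28), and autophagy and the MiT/TFE family gave *Mitf* (0.61), *Epg5* (0.41), *Wipi1* (0.37), *Calcoco1* (0.30) and *Atg13* (0.28). FOXO, ATF4 and metabolic genes gave *Slc7a3* (1.85), *Pdk4* (0.99), *Angptl4* (0.90), *Vegfa* (0.87), *Ccng2* (0.70), *Chac1* (0.70), *Abcc1* (0.63), *Bcl2l11* (0.63), *Cited2* (0.48), *Srebf1* (0.39), *Adss* (0.34) and *Cycs* (0.31). The others were *Apbb1ip* (2.36), *Exosc6* (1.91), *Slco2a1* (1.74), *F2rl1* (1.63), *Pdpn* (1.46), *Tcp11l2* (0.99), *Snhg6* (0.62), *Pole* (0.42), *Snhg16* (0.41), *Wdr36* (0.35), *Eif1* (0.34), *Snhg1* (0.33), *Cenpe* (0.33), *Ndc80* (0.27) and *Eif3g* (0.27).

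Some of these calls ended when 1 library was left out, beyond those given with the results above. The difference was not called without any 1 of 12 of the 16 libraries for *Mmp10* (0.58 to 0.85) and *Snhg1* (0.28 to 0.34), of 11 for *Snhg16* (0.32 to 0.43), of 10 for *Etv4* (0.45 to 0.55) and of 7 for *Mmp19* (-0.64 to -0.54). The number was 6 for *Fos* (-0.99 to -0.87) and *Eif3g* (0.24 to 0.26), 5 for *Ftl1* (-0.26 to -0.24), and 4 for *Ndc80* (0.22 to 0.26) and *Angptl4* (0.80 to 0.85). *Lamtor4* lost the call without DKO DMSO replicate 4 or WT torin1 replicate 2 (-0.25 in each case), *Cycs* without the latter (0.26), *Atg4d* without DKO DMSO replicate 3 (-0.26) and *Ctsf* without DKO DMSO replicate 2 (-0.74).

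Single libraries stood far from the other 3 of their group, by Dixon's criterion, in 36 of 592 groups checked for the genes named and in 5 of 76 checked for the lists, where chance meets the criterion in about 1 of 20 groups. The values below are given as a record. With DMSO, replicate 2 (passage 8) was highest for *Aars* (1093 CPM), *Eif2s2* (496 CPM), *Aldh18a1* (294 CPM), *Sqstm1* (739 CPM), *Cth* (47.9 CPM) and *Ctsf* (1.88 CPM), and for the mean level of the ATF4 list (0.26). Replicate 1 with DMSO was lowest for *Pabpc1* (2009 CPM), *Rpl10a* (596 CPM), *Bysl* (93.6 CPM), *Mrps2* (71.2 CPM), *Nr1d2* (54.3 CPM) and *Perp* (19.9 CPM) and highest for *Atg13* (48.5 CPM), *Sesn3* (33.2 CPM), *Arntl* (23 CPM) and *Ccl9* (0.960 CPM). Replicate 3 with DMSO was lowest for *Pik3ip1* (5.26 CPM) and *Cxcl16* (0.384 CPM) and highest for the proteasome list (0.039), and replicate 4 was highest for *Dusp1* (73.5 CPM) and *Cd68* (5.98 CPM).

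With torin1, replicate 1 was lowest for *Eif2s2* (241 CPM) and *Aldh18a1* (61.9 CPM) and highest for the mitosis list (0.14). Replicate 2 was highest for *Tpm1* (2213 CPM), *Scd1* (168 CPM) and the list of chemokines (0.46), and lowest for *Rragc* (66.1 CPM), *Atp6v1h* (40.2 CPM), *Perp* (27 CPM) and *Pparg* (1.03 CPM). Replicate 3 was highest for *Atg5* (28.1 CPM) and *Taf1b* (14.3 CPM), lowest for *Idi1* (7.80 CPM) and lowest for the contractile list (-0.17). Replicate 4 was highest for *Ccn2* (519 CPM) and lowest for *Nme1* (76.4 CPM), *Etfb* (31.3 CPM), *Neu1* (13 CPM) and *Pdpn* (0.643 CPM).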

How the results depend on the processing

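In DKO, the number of upregulated genes ranged from 2584 to 4460 and that of downregulated genes from 2195 to 4325 over 13 other settings, and leaving out each DKO library in turn gave 3349 to 3461 and 3037 to 3098. In WT the ranges without single libraries were 3927 to 4104 and 3089 to 3168. Genes with a higher response in DKO numbered 141 with a test against the fold limit (glmTreat), 472 with library size alone and 1146 at the adjusted p alone, and 593 to 796 without single libraries. Genes with a lower response numbered 313 with glmTreat, 1306 with library size alone, and 826 to 1033 without single libraries. The glmTreat and adjusted p settings are stricter and looser by construction, and library size alone moved the median response difference of all genes from -0.0053 to -0.061 and the median response in WT from 0.049 to 0.14, so that counts with it are relative to a shifted centre. Replicate numbers did not pair the libraries (correlations of same-numbered deviations from -0.12 to 0.06). Libraries of the same passage correlated at 0.049 to 0.16, and each torin1 library correlated best with the DMSO library of its passage. With a replicate block the counts were 3382 upregulated and 3226 downregulated genes, 22 and 1 interferon-stimulated genes in place of 1 and 0, and 702 and 866 higher and lower responses, and with a passage block 3548, 3343, 1027 and 1236. Leaving out the passage 8 DKO libraries gave 3343 and 3016 genes in DKO. No named gene changed direction while called. The 4 libraries of a group limit what small changes can be told, and low genes rest on few counts.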

Other observations

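Gene classes moved unequally with torin1 in DKO, a comparison chosen after the values were seen and given with no test. Of 938 long noncoding genes tested, 358 (38.2%) were upregulated and 57 (6.08%) downregulated, with a median log2 fold change of 0.43, against 3008 (23.4%) and 2884 (22.5%) of 12846 protein-coding genes. Of 1143 processed pseudogenes, 44 (3.85%) were upregulated and 134 (11.7%) downregulated. The long noncoding genes were low, with a median of 0.652 CPM in DKO with DMSO against 29.8 for protein-coding genes, and in WT 43.4% of them were upregulated. The part of level in this difference was not tested.

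Small nucleolar RNA host genes are long noncoding RNAs whose introns hold small nucleolar RNAs, and several are known to be degraded when they are translated. Of 16 tested, 9 were upregulated and 1 downregulated in DKO. *Zfas1* rose from 21.7, 30, 26.4 and 25.1 CPM to 110, 115, 123 and 116, with no torin1 library near the DMSO libraries. *Snhg6* (log2 fold change 1.49), *Snhg1* (1.26), *Snhg16* (1.18) and *Gas5* (0.44) rose as well, and *Snhg3* fell (-0.75).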
